A study of Mus musculus with 12 samples.

Results

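The genes described are 32 members of the glycolysis pathway: carriers of glucose and lactate, the enzymes from hexokinase to lactate dehydrogenase, the PFKFB and pyruvate dehydrogenase kinase regulators, and the hypoxia factor Hif1a. They were chosen by gene symbol, and all 32 were among the 27179 genes of the deposited count table. All 32 also passed the filter on low counts, which left 14182 genes for testing. RNA was sequenced in bulk from natural killer (NK) cells, innate lymphocytes that kill tumour and infected cells, which were sorted from pancreatic tumours of mice with the genotype label WT on day 21. The 12 libraries formed 4 groups of 3. The cGAMP group was given 10 µg of cGAMP, a cyclic dinucleotide that activates the STING sensor pathway, intravenously on 4 occasions. An antibody that blocks the cytokine IL-35 was given to the anti-IL-35 group, 200 µg intraperitoneally on 3 occasions. The combination group had both treatments, and the IgG group was the control. PBS was the stated alternative to cGAMP, both courses began on day 8, and injections were repeated every 3 days. All groups shared the tumour model and the sort. No source used here gives the tumour cell line, the gate of the sort or any pooling of animals. Nothing in the labels says whether the 3 libraries per group stand for different animals. The p-values therefore reflect spread among libraries alone, and that spread could be technical.

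Glycolysis splits glucose into pyruvate and yields ATP without oxygen. Glucose enters through SLC2A carriers, is trapped by hexokinases and is committed to breakdown by phosphofructokinase, whose activity the PFKFB enzymes set through the level of a fructose bisphosphate. Pyruvate is then turned into lactate, which leaves through SLC16A carriers, or enters mitochondria, a step that pyruvate dehydrogenase kinases hold back. In NK cells, cytokine activation is known to raise glucose uptake and glycolysis, and neutrophils and inflammatory macrophages are known for high rates of glycolysis.

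Library totals ran from 12811353 to 22217766 assigned reads. Levels are CPM, read counts set relative to library size, with TMM scaling, which corrects for differences in library composition. All 14 NK markers checked, among them Ncr1, Klrb1c, Eomes and Prf1, were above 0 in every group, and they summed to 7405 to 7472 CPM with cGAMP, 6700.5 to 7228 CPM with anti-IL-35, 6327 to 6480.2 CPM with the combination and 6708 to 6787 CPM with IgG. Relative to IgG, 8 of them were called higher and 0 lower under cGAMP, 3 higher and 2 lower under anti-IL-35, and 1 higher and 8 lower under the combination. For the 9 receptor genes among them the calls were 5 higher and 0 lower, 0 higher and 2 lower, and 0 higher and 7 lower in the same order. Of all tested genes, 9.37% were called higher and 3.56% lower under cGAMP. The shares were 15.7% and 9.32% under anti-IL-35 and 15.7% and 7.50% under the combination. Markers of other cell types were present too, and some moved with treatment. The 16 neutrophil markers summed to 11864 to 12055 CPM with cGAMP, 22162 to 23339 CPM with anti-IL-35, 20312 to 20365 CPM with the combination and 5131 to 5327 CPM with IgG, and all 16 were called higher than with IgG in each of the 3 treated groups. The 11 B cell markers summed to 16026 to 16532 CPM with cGAMP, 6811 to 6947 CPM with anti-IL-35, 16506 to 16772 CPM with the combination and 15199 to 15545 CPM with IgG, and all 11 were called lower with anti-IL-35 than with IgG. Under cGAMP 1 of the 11 was called higher and 2 lower than IgG. Under the combination 2 were called higher and 6 lower, although the sum stood above that of IgG. The 14 markers of macrophages and monocytes summed to 6465 to 6587 CPM with cGAMP, 6487 to 6511 CPM with anti-IL-35, 7370.5 to 7474 CPM with the combination and 6429 to 6505 CPM with IgG. Of the 14, 2 were called higher and 3 lower than IgG under cGAMP, 2 higher and 10 lower under anti-IL-35, and 2 higher and 6 lower under the combination. Summed levels of the T cell list lay at 612 to 623 CPM with cGAMP, 479 to 502 CPM with anti-IL-35, 489.7 to 519.6 CPM with the combination and 654 to 660.3 CPM with IgG, and those of the dendritic cell list at 2325 to 2451 CPM with cGAMP, 1939 to 2078 CPM with anti-IL-35, 2261 to 2376 CPM with the combination and 2801 to 2878 CPM with IgG. Lower calls relative to IgG were made for 2, 9 and 10 of the 12 T cell markers and for 3, 5 and 6 of the 11 dendritic cell markers under cGAMP, anti-IL-35 and the combination, and no higher calls. The erythroid and platelet list summed to 935 to 986 CPM with cGAMP, 487 to 501 CPM with anti-IL-35, 854 to 886 CPM with the combination and 399.6 to 417 CPM with IgG. Epithelial markers stayed between 15.6 CPM in a combination library and 40.2 CPM in an IgG library, and fibroblast and endothelial markers between 91.0 CPM in an anti-IL-35 library and 130 CPM in a cGAMP library, with Lum at 0 throughout. Mitochondrial transcripts took 8.19 ± 0.460% of counts with cGAMP, 5.86 ± 0.397% with anti-IL-35, 6.44 ± 0.378% with the combination and 6.10 ± 0.107% with IgG (SD, n = 3). The part of these cells in the changes of glycolysis genes was not tested. In bulk RNA, fewer cells of a type and less RNA per cell cannot be told apart.

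Summed TMM-scaled levels of glycolysis genes were higher in every treated group than with IgG. These sums depend on the scaling. TMM factors were 1.07 in the IgG libraries and 0.961 to 0.997 in the treated libraries, and a larger factor lowers the CPM. Sums under other scalings were not computed. Summed over the 32 genes, the level was 5929 ± 38.8 CPM with cGAMP, 7717 ± 173 CPM with anti-IL-35, 7438 ± 119 CPM with the combination and 5354 ± 14.1 CPM with IgG (SD, n = 3), and the libraries of no treated group overlapped those of the IgG group. The 3 glucose carriers summed to 291 ± 9.23 CPM with cGAMP, 464 ± 13.3 CPM with anti-IL-35, 416 ± 7.39 CPM with the combination and 210.4 ± 7.93 CPM with IgG. The pair of lactate carriers stood at 141 ± 5.33 CPM with cGAMP, 277 ± 18.4 CPM with anti-IL-35, 293 ± 9.86 CPM with the combination and 93.9 ± 3.52 CPM with IgG. For the 17 enzymes from Gpi1 to the lactate dehydrogenases, the sum was 4766 ± 29.2 CPM with cGAMP, 6030.4 ± 154 CPM with anti-IL-35, 5813 ± 89.8 CPM with the combination and 4368 ± 16.9 CPM with IgG. The neutrophil sums given above were likewise lowest in the IgG libraries and highest in the anti-IL-35 libraries. That order was not particular to neutrophil markers. The pentose phosphate list described below summed to 1338 ± 22.8 CPM with IgG and 2104 ± 42.4 CPM with anti-IL-35, its lowest and highest groups. For the glycogen and gluconeogenesis list these were 548 ± 25.6 CPM and 907 ± 16.2 CPM. Any link between these sums was not tested.

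**Figure D1:**
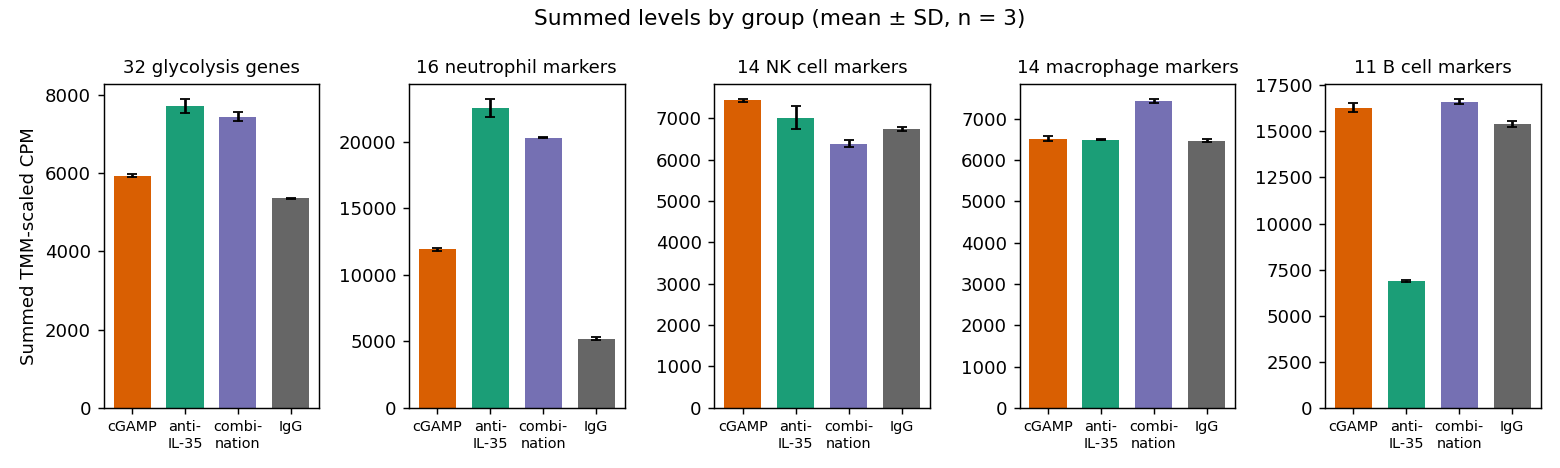
Summed TMM-scaled CPM (vertical axes) of the 32 glycolysis genes and of 4 lists of cell type markers in the cGAMP, anti-IL-35, combination and IgG groups; bars are means and error bars SD of 3 libraries. The glycolysis sum and the neutrophil sum were both lowest with IgG and highest with anti-IL-35, whereas the B cell sum was lowest with anti-IL-35. Any link between these sums was not tested.

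Called changes were mostly increases with all treatments. In edgeR's quasi-likelihood test at a Benjamini-Hochberg adjusted p under 0.05, 8 of the 32 genes were higher and 1 was lower with cGAMP than with IgG, where 9.37% of all tested genes were higher and 3.56% lower. With anti-IL-35, 17 were higher and 1 was lower than with IgG, against 15.7% and 9.32% of all tested genes. The combination gave 18 higher and 2 lower than with IgG, against 15.7% and 7.50% of all tested genes. Under cGAMP the log2 fold changes of the 32 genes had a median of 0.04, against 0.02 for all tested genes. Under anti-IL-35 the medians were 0.32 for the 32 genes and -0.02 for all tested genes, and under the combination 0.27 and -0.02. These comparisons share their IgG libraries. Scaling moved some calls. With library totals alone the medians of all tested genes shifted to -0.09, -0.15 and -0.17, and the 32 genes gave 5 higher and 3 lower with cGAMP and 13 higher and 5 lower with the combination. Scaling on 9 NK receptor transcripts put the median of all tested genes at -0.10 with cGAMP and 0.20 with the combination. Under it 4 of the 32 were higher and 1 lower with cGAMP, and 21 were higher and none lower with the combination. Over all tested genes TMM gave 1329 higher and 505 lower with cGAMP, 2220 and 1322 with anti-IL-35 and 2224 and 1064 with the combination. Library totals alone gave 601 and 1277, 1472 and 3125, and 1360 and 3370 in the same order, and NK receptor scaling 402 and 826, 1882 and 986, and 4472 and 184.

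**Figure D2:**
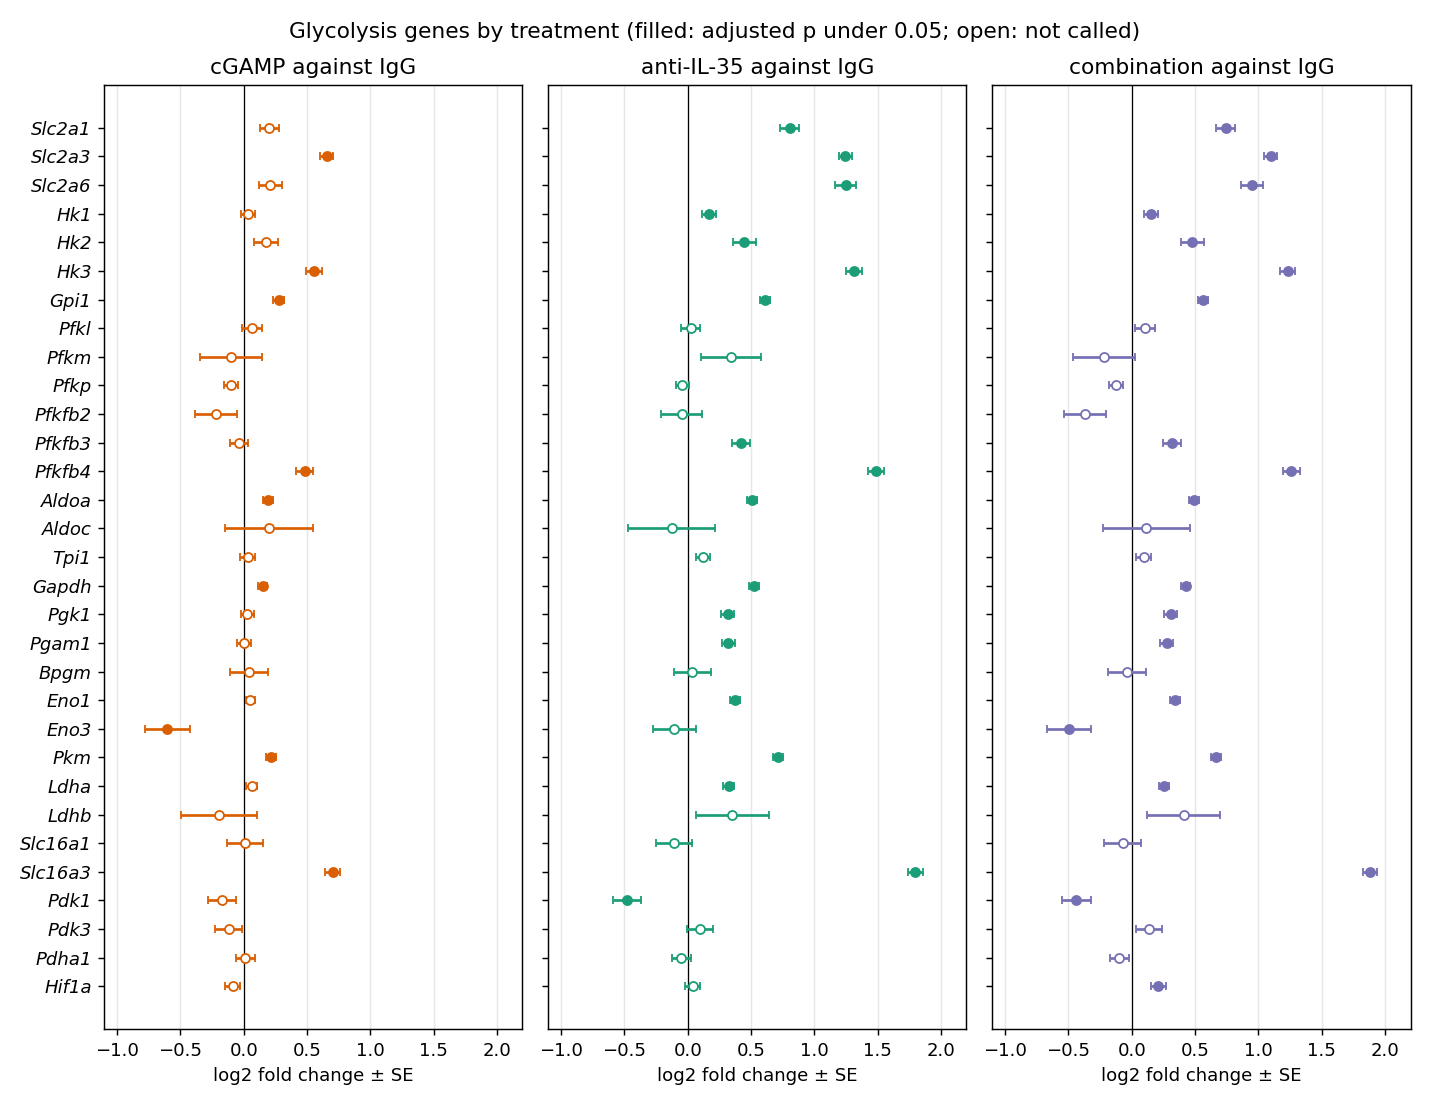
Log2 fold change (horizontal axis, error bars SE) of each glycolysis gene for the 3 treatments relative to IgG, 1 panel each, filled where edgeR's quasi-likelihood test gave an adjusted p under 0.05; Eno2, with a mean level under 1 CPM in all groups, is left out. Slc16a3 lies farthest to the right in every panel, at 0.70, 1.80 and 1.88, and the phosphofructokinases Pfkl, Pfkm and Pfkp have open symbols in each panel, which holds the fit with TMM scaling.

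Per kilobase of exon, the most abundant members in IgG libraries were the enzymes of the pathway's lower part and aldolase. Gapdh had 206 ± 4.29 CPM per kb, Aldoa 161 ± 2.57, Pkm 146 ± 2.15, Eno1 133 ± 2.67 and Ldha 113 ± 2.21 CPM per kb in IgG libraries (SD, n = 3), and each of these levels stood above the next beyond the SDs. Pgk1, at 88.2 ± 1.82 CPM per kb, and Pgam1, at 85.6 ± 5.73 CPM per kb, did not differ beyond their spread. At the low end were Eno2 with 0.128 ± 0.0289, Aldoc with 1.04 ± 0.198, Pfkm with 1.93 ± 0.150 and Ldhb with 2.26 ± 0.630 CPM per kb, isozymes known mainly from brain, muscle or heart. For abundant enzymes with many processed pseudogenes, such as Gapdh, Eno1, Aldoa and Ldha, reads shared with copies may be split, since no source used here says how multi-mapping reads were counted. The copy Eno1b held 12055 counts over the 12 libraries beside 175132 for Eno1, and Gapdh-ps15 held 437 beside 222586 for Gapdh. Reads dropped or split over other copies are not covered by these counts, and the levels of Eno1 and Gapdh are uncertain.

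The start regions of 5 genes are shown as examples of different changes with anti-IL-35. Slc16a3, Hk3 and Pfkfb4 had the largest increases, Ldha an increase at the median of the 32 genes (0.32), and Pdk1 fell. Each is the stretch of 250 bases before an annotated transcription start, 5′ to 3′ on the gene's strand, in RefSeq annotation of build GRCm38.p6. Capitals mark ACGTG on either strand, the core of the hypoxia response element bound by Hif1a with its partner; it overlaps the E box CACGTG, which other factors bind. The Slc16a3 stretch is chr11:120948817-120949066 on the plus strand, the Hk3 stretch chr13:55021386-55021635 on the minus strand and the Pfkfb4 stretch chr9:108991652-108991901 on the plus strand. The Ldha stretch is chr7:46845554-46845803 on the plus strand and the Pdk1 stretch chr2:71872974-71873223 on the plus strand.
Slc16a3: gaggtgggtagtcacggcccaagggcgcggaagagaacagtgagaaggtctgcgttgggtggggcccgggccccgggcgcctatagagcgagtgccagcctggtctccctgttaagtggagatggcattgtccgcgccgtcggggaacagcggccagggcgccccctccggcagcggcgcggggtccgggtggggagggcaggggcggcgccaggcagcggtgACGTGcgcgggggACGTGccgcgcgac
Hk3: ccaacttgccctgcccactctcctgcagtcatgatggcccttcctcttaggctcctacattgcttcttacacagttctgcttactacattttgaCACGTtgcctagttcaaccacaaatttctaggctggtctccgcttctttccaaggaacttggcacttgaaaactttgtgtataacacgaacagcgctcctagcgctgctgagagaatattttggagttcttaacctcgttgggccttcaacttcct
Pfkfb4: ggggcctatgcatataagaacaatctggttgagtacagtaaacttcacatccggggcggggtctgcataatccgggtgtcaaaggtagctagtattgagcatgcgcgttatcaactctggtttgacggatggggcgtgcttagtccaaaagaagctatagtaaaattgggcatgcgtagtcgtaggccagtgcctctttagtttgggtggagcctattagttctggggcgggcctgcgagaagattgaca
Ldha: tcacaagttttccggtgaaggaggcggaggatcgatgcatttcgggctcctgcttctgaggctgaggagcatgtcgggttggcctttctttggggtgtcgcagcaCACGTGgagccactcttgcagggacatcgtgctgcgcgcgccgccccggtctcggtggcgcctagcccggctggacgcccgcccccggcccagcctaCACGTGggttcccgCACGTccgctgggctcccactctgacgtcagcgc
Pdk1: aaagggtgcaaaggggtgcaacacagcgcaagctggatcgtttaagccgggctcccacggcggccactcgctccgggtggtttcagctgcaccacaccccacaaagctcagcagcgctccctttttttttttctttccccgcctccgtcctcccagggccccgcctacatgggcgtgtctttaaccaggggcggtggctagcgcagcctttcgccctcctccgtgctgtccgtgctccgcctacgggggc
Counted on both strands, with the palindrome CACGTG counting once per strand, ACGTG occurred 2 times in the Slc16a3 stretch, 1 time in that of Hk3 and 5 times in that of Ldha, and not in those of Pfkfb4 and Pdk1. GCGTG, the other common form of the core, was neither marked nor counted in the stretches. It does occur in those of Pfkfb4 and Pdk1. Windows from 250 bases before to 50 after a start were at hand for 31 of the 32 genes, with 46 starts in all. Only 1 start is shown for each of the 5 genes above. Any other starts of these genes are not covered by the counts in the stretches. ACGTG was in 22 of these 46 windows (47.8%), in 20.9% of the 21263 windows of protein-coding genes and in 19.6% of all 32851 windows. GCGTG was in 56.5% of the members' windows and in 38.5% of those of protein-coding genes. A match describes letters only.

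All 3 glucose carriers were called higher than IgG under anti-IL-35 and under the combination. Slc2a3 encodes GLUT3, a carrier with high affinity for glucose (gene 20527, chromosome 6, 122727809 to 122802363, build mm10), and had 178, 179 and 186 CPM in the cGAMP libraries, 263, 278 and 276 CPM in the anti-IL-35 libraries and 242, 249.8 and 246 CPM in the combination libraries, against 115, 112 and 117 CPM in the IgG libraries. The libraries of each treated group lay above all IgG libraries. Its log2 fold change against IgG was 0.66 ± 0.05 with cGAMP (SE, adjusted p = 1.36e-14), 1.25 ± 0.05 with anti-IL-35 (adjusted p = 7.45e-26) and 1.10 ± 0.05 with the combination (adjusted p = 1.46e-23). Slc2a6 encodes GLUT6, a hexose carrier of lysosomal membranes known from inflammatory macrophages (gene 227659, chromosome 2, 27021363 to 27028000), and had 46.4, 40.5 and 50.2 CPM in the cGAMP libraries, 94.1, 88.9 and 98.4 CPM in the anti-IL-35 libraries and 81.7, 75.9 and 71.9 CPM in the combination libraries, against 35.3, 41.9 and 41.3 CPM in the IgG libraries. Anti-IL-35 and combination libraries were all above the IgG libraries, and a cGAMP library fell within the IgG range. The log2 fold changes were 1.25 ± 0.08 with anti-IL-35 (adjusted p = 3.17e-17) and 0.95 ± 0.08 with the combination (adjusted p = 4.49e-13), and 0.21 ± 0.09 with cGAMP, which was not called (adjusted p = 0.113). Without cGAMP replicate 2 that change was 0.29 and called (adjusted p = 0.0347). Slc2a1 encodes GLUT1, the basal glucose carrier of many cells (gene 20525, chromosome 4, 119108745 to 119137330), and had 64.8, 63.8 and 64.8 CPM in the cGAMP libraries, 94.3, 95.2 and 104 CPM in the anti-IL-35 libraries and 92.3, 97.9 and 90.8 CPM in the combination libraries, against 55.6, 51.4 and 61.0 CPM in the IgG libraries. No treated library reached down to the IgG range, but the change with cGAMP, 0.20 ± 0.07, was not called (adjusted p = 0.0642). Without IgG replicate 3 that change was 0.27 and called (adjusted p = 0.0301). With anti-IL-35 the change of Slc2a1 was 0.80 ± 0.07 (adjusted p = 5.07e-13), and with the combination 0.74 ± 0.07 (adjusted p = 9.02e-12).

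Of the lactate carriers, Slc16a3 was called higher in every treated group and Slc16a1 in none. Slc16a3 encodes MCT4, the carrier known for exporting lactate from glycolytic cells (gene 80879, chromosome 11, 120948484 to 120959000, the gene with the pair of ACGTG letters above), and had 120.1, 127 and 117 CPM in the cGAMP libraries, 240.2, 258 and 279 CPM in the anti-IL-35 libraries and 279.8, 265 and 279 CPM in the combination libraries, against 72.5, 75.2 and 76.0 CPM in the IgG libraries. Each treated group lay clear of the IgG libraries, and the cGAMP libraries lay below all anti-IL-35 and combination libraries. Its log2 fold change was 0.70 ± 0.06 with cGAMP (adjusted p = 1.25e-13), 1.80 ± 0.06 with anti-IL-35 (adjusted p = 5.19e-30) and 1.88 ± 0.06 with the combination (adjusted p = 1.41e-30), the largest increase of the 32 genes in all 3 comparisons. Slc16a1, which encodes MCT1, a carrier that can run in both directions, averaged 19.5 ± 0.245 CPM with cGAMP, 18.0 ± 2.98 CPM with anti-IL-35, 18.4 ± 3.52 CPM with the combination and 19.4 ± 2.09 CPM with IgG and was not called in any comparison, with log2 fold changes of 0.01 ± 0.14, -0.11 ± 0.14 and -0.07 ± 0.14 against IgG in the same order.

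Hexokinases trap glucose in the cell by phosphorylation, and the 3 isozymes moved by different amounts. Hk3, the hexokinase known for its expression in myeloid cells (gene 212032, chromosome 13, 55005985 to 55021475), had 112, 109 and 109 CPM in the cGAMP libraries, 181, 189 and 186 CPM in the anti-IL-35 libraries and 186, 183 and 157 CPM in the combination libraries, against 72.3, 78.0 and 73.7 CPM in the IgG libraries. Libraries of all treated groups stood above the IgG libraries. The log2 fold change was 0.56 ± 0.06 with cGAMP (adjusted p = 1.28e-09), 1.31 ± 0.06 with anti-IL-35 (adjusted p = 2.55e-23) and 1.23 ± 0.06 with the combination (adjusted p = 4.26e-22). Hk2, the inducible isozyme of activated lymphocytes and tumours, averaged 41.1 ± 1.63 CPM with cGAMP, 49.5 ± 4.08 CPM with anti-IL-35, 50.7 ± 3.73 CPM with the combination and 36.3 ± 2.68 CPM with IgG. It was called with anti-IL-35 (0.45 ± 0.09, adjusted p = 0.000135) and the combination (0.48 ± 0.09, adjusted p = 6.01e-05), and not with cGAMP (0.18 ± 0.09, adjusted p = 0.261). The ubiquitous Hk1 averaged 153 ± 2.19 CPM with cGAMP, 167 ± 6.27 CPM with anti-IL-35, 166 ± 8.01 CPM with the combination and 149 ± 9.16 CPM with IgG. Its changes were 0.16 ± 0.06 with anti-IL-35 (adjusted p = 0.0223) and 0.15 ± 0.06 with the combination (adjusted p = 0.0438). Both calls were fragile. That with anti-IL-35 ended without anti-IL-35 replicate 2 (adjusted p = 0.123) and without IgG replicate 2 (adjusted p = 0.215), with library totals alone (0.03, adjusted p = 0.669), under NK receptor scaling (adjusted p = 0.12) and with no filter (adjusted p = 0.0884). That with the combination ended without combination replicate 1 or 2 or IgG replicate 1 or 2 (adjusted p of 0.0757 to 0.313), with RLE size factors (adjusted p = 0.066), DESeq2 (adjusted p = 0.0618), no filter (adjusted p = 0.197) and the replicate block (adjusted p = 0.0602), and turned to -0.01 with library totals alone.

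**Figure D3:**
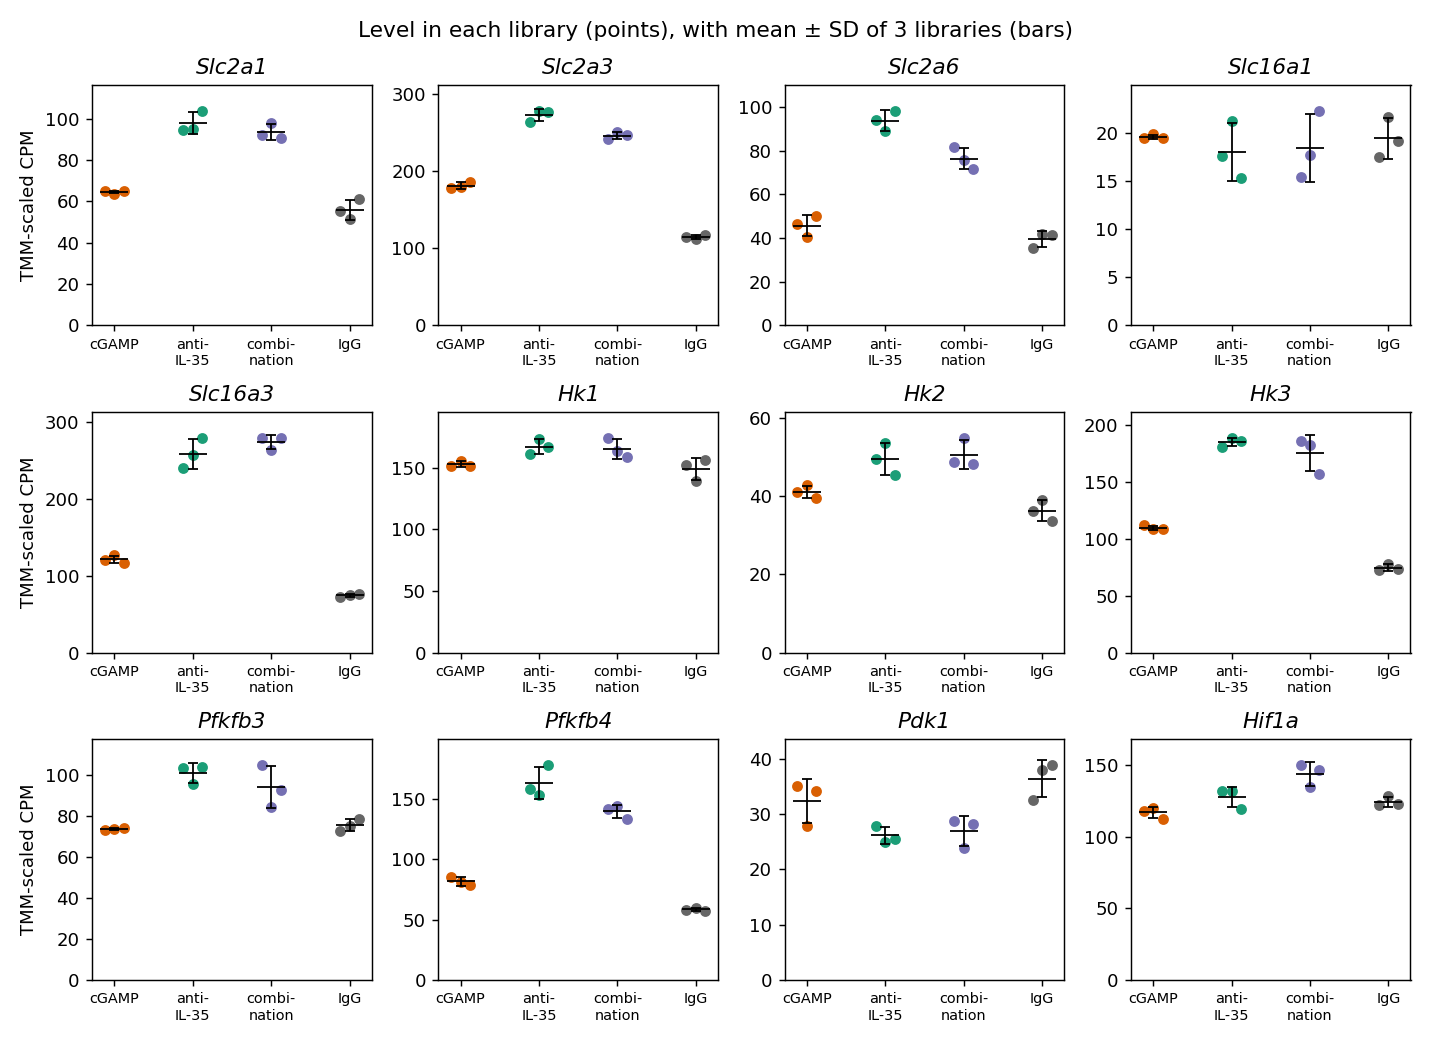
TMM-scaled CPM (vertical axes, from 0) of 12 carriers, hexokinases and regulators in each library of the cGAMP, anti-IL-35, combination and IgG groups; points are libraries and bars mean ± SD of 3. Slc16a3, Slc2a3, Hk3 and Pfkfb4 stand above IgG in all libraries of the treated groups, whereas Slc16a1 shows no separation of groups and Pdk1 is lowest with anti-IL-35 and the combination.

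Enzymes of the upper pathway rose in part. Gpi1 turns glucose phosphate into fructose phosphate (gene 14751, chromosome 7, 34201327 to 34230336) and had 509, 495 and 507 CPM in the cGAMP libraries, 629, 617 and 665 CPM in the anti-IL-35 libraries and 621, 623 and 603 CPM in the combination libraries, against 424, 416 and 409.7 CPM in the IgG libraries. The IgG libraries were the lowest, the cGAMP libraries came next and the other treated libraries were the highest, with no overlap with IgG. Its log2 fold change was 0.27 ± 0.04 with cGAMP (adjusted p = 8.99e-07), 0.61 ± 0.04 with anti-IL-35 (adjusted p = 1.13e-17) and 0.56 ± 0.04 with the combination (adjusted p = 2.8e-16). The call with cGAMP ended under NK receptor scaling (0.15, adjusted p = 0.191). Aldoa, the aldolase of muscle and most other tissues, averaged 535 ± 9.08 CPM with cGAMP, 667 ± 5.19 CPM with anti-IL-35, 658 ± 18.3 CPM with the combination and 468 ± 7.47 CPM with IgG, with changes of 0.19 ± 0.04, 0.51 ± 0.04 and 0.49 ± 0.04, all called. With cGAMP the Aldoa call ended with library totals alone (0.08, adjusted p = 0.188) and under NK receptor scaling (0.07, adjusted p = 0.593). Aldoc, the brain isozyme, averaged between 3.12 CPM with anti-IL-35 and 3.92 CPM with cGAMP and was not called. Tpi1, which interconverts the triose phosphates, averaged 128 ± 8.09 CPM with cGAMP, 137 ± 1.40 CPM with anti-IL-35, 134 ± 2.49 CPM with the combination and 126 ± 3.67 CPM with IgG and was not called either, with changes of 0.03 ± 0.06, 0.12 ± 0.06 and 0.09 ± 0.06, except under NK receptor scaling with the combination (0.31, adjusted p = 0.000872).

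The phosphofructokinases, which catalyse the committed step, gave no call in any of the 6 comparisons by the edgeR test with TMM scaling, although some calls appeared under other settings. Pfkp averaged 184 ± 13.3 CPM with cGAMP, 191 ± 8.47 CPM with anti-IL-35, 181 ± 3.06 CPM with the combination and 197 ± 8.66 CPM with IgG, and Pfkl 74.1 ± 3.20 CPM with cGAMP, 71.9 ± 5.57 CPM with anti-IL-35, 76.3 ± 7.06 CPM with the combination and 70.9 ± 4.99 CPM with IgG. Pfkm stood between 5.54 CPM with the combination and 8.18 CPM with anti-IL-35. The change of Pfkp with the combination was -0.13 ± 0.05 (adjusted p = 0.0902), and it became a lower call at -0.28 with library totals alone (adjusted p = 5.18e-05), and likewise with no filter (-0.16, adjusted p = 0.0185) and in the fit of the compared groups alone (-0.13, adjusted p = 0.0191). With library totals alone Pfkp was also called lower with cGAMP (-0.21, adjusted p = 0.00488) and anti-IL-35 (-0.17, adjusted p = 0.0112). Under NK receptor scaling Pfkl was called higher with the combination (0.32, adjusted p = 0.00656).

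Of the 3 PFKFB regulators, which make or remove the activator of phosphofructokinase, 2 changed. Pfkfb4, an isozyme known from testis and as a target of hypoxia (gene 270198, chromosome 9, 108988272 to 109032236), had 85.3, 80.8 and 78.6 CPM in the cGAMP libraries, 159, 153 and 178 CPM in the anti-IL-35 libraries and 141, 144 and 134 CPM in the combination libraries, against 58.2, 59.6 and 57.3 CPM in the IgG libraries. Libraries of the treated groups lay above the IgG libraries, those of cGAMP below those of anti-IL-35 and the combination. Its log2 fold change was 0.48 ± 0.07 with cGAMP (adjusted p = 2.29e-07), 1.48 ± 0.06 with anti-IL-35 (adjusted p = 2.38e-24) and 1.26 ± 0.07 with the combination (adjusted p = 1.91e-21). Pfkfb3, the isozyme with the highest kinase activity, averaged 73.8 ± 0.410 CPM with cGAMP, 101 ± 4.71 CPM with anti-IL-35, 94.2 ± 10.3 CPM with the combination and 75.7 ± 2.92 CPM with IgG. It was called with anti-IL-35 (0.42 ± 0.07, adjusted p = 4.89e-06) and with the combination (0.31 ± 0.07, adjusted p = 0.000567, which library totals alone raised to 0.0803), and not with cGAMP (-0.04 ± 0.07). Pfkfb2, the heart isozyme, averaged 14.9 ± 1.26 CPM with cGAMP, 16.8 ± 2.21 CPM with anti-IL-35, 13.4 ± 2.16 CPM with the combination and 17.4 ± 4.62 CPM with IgG and was not called, with a change of -0.37 ± 0.17 with the combination (adjusted p = 0.108). It became a lower call without IgG replicate 3 (-0.57, adjusted p = 0.0114) and, at -0.52, with library totals alone (adjusted p = 0.0125).

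In the lower pathway, Gapdh, Pgk1, Pgam1, Eno1 and Pkm were all called higher than IgG under anti-IL-35 and under the combination. Pkm, the pyruvate kinase that makes pyruvate and ATP (gene 18746, chromosome 9, 59656576 to 59679372), had 867, 849 and 826 CPM in the cGAMP libraries, 1169, 1173 and 1247 CPM in the anti-IL-35 libraries and 1165, 1179 and 1124 CPM in the combination libraries, against 729, 719 and 741 CPM in the IgG libraries. Treated groups and IgG did not overlap. Its log2 fold change was 0.22 ± 0.04 with cGAMP (adjusted p = 1.89e-05), 0.71 ± 0.04 with anti-IL-35 (adjusted p = 1.98e-21) and 0.66 ± 0.04 with the combination (adjusted p = 3.61e-20). Gapdh, the dehydrogenase of glyceraldehyde phosphate, averaged 944 ± 17.4 CPM with cGAMP, 1224 ± 37.6 CPM with anti-IL-35, 1144 ± 15.5 CPM with the combination and 851 ± 17.7 CPM with IgG, and changed by 0.15 ± 0.04 with cGAMP (adjusted p = 0.00225), 0.52 ± 0.04 under anti-IL-35 and 0.43 ± 0.04 under the combination. With cGAMP, the calls of Pkm and Gapdh ended with library totals alone (0.10, adjusted p = 0.0546, and 0.04, adjusted p = 0.555) and under NK receptor scaling (0.09, adjusted p = 0.46, and 0.03, adjusted p = 0.854). Gapdh is often used to scale other transcripts, and here it was higher in every treated group under TMM scaling. Pgk1, the phosphoglycerate kinase, changed by 0.31 ± 0.05 under anti-IL-35 and 0.31 ± 0.05 under the combination. Pgam1, the phosphoglycerate mutase, changed by 0.32 ± 0.05 and 0.27 ± 0.05. The enolase Eno1 changed by 0.38 ± 0.04 and 0.34 ± 0.04 in the same order. With cGAMP, Pgk1 (0.03 ± 0.05), Pgam1 (0.00 ± 0.05) and Eno1 (0.05 ± 0.04) were not called. The Pgam1 call with the combination ended with library totals alone (0.12, adjusted p = 0.0726). Bpgm, which makes the bisphosphoglycerate that red cells use to release oxygen, averaged 17.9 ± 1.54 CPM with cGAMP, 17.7 ± 2.68 CPM with anti-IL-35, 16.9 ± 2.89 CPM with the combination and 17.3 ± 1.89 CPM with IgG and was not called.

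Enolases other than Eno1 were scarce and went other ways. Eno3, the muscle enolase (gene 13808, chromosome 11, 70653125 to 70662513), had 16.6, 11 and 13.0 CPM in the cGAMP libraries, 22.7, 16 and 18.4 CPM in the anti-IL-35 libraries and 12.5, 11 and 19.8 CPM in the combination libraries, against 17.7, 23.3 and 20.4 CPM in the IgG libraries. All cGAMP libraries lay below the IgG libraries, while those of anti-IL-35 and the combination overlapped IgG. The log2 fold change was -0.60 ± 0.18 with cGAMP (adjusted p = 0.0159), -0.50 ± 0.17 with the combination (adjusted p = 0.0325) and -0.11 ± 0.17 with anti-IL-35, not called. Both calls were weak: leaving out 1 library ended that with cGAMP in 3 of 6 fits (without cGAMP replicate 2, cGAMP replicate 3 or IgG replicate 2, adjusted p of 0.0678 to 0.128). It ended that with the combination in 4 of 6 (without combination replicate 1 or 2, or IgG replicate 2 or 3, adjusted p of 0.0784 to 0.222), and NK receptor scaling ended the call with the combination too (adjusted p = 0.248). Eno2, the neuronal enolase, rested on 4 counts over the cGAMP libraries, 8 over the anti-IL-35 libraries, 37 over the combination libraries and 30 over the IgG libraries, and was not called against IgG, except that it was lower with cGAMP without cGAMP replicate 1 (adjusted p = 0.049), which leaves no count in that group.

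Lactate dehydrogenase turns pyruvate into lactate. Ldha averaged 392 ± 12.3 CPM with cGAMP, 469 ± 4.28 CPM with anti-IL-35, 448 ± 8.02 CPM with the combination and 375 ± 7.31 CPM with IgG, and was called with anti-IL-35 (0.32 ± 0.04, adjusted p = 1.1e-08) and the combination (0.26 ± 0.04, adjusted p = 2.5e-06, 0.0579 with library totals alone), not with cGAMP (0.06 ± 0.04). Ldhb, the heart subunit, averaged 3.08 ± 0.697 CPM with cGAMP, 4.52 ± 0.299 CPM with anti-IL-35, 4.71 ± 0.535 CPM with the combination and 3.55 ± 0.989 CPM with IgG and was not called.

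At the entry of pyruvate into mitochondria, Pdk1 was the only gene of its role called, and it was lower. Pdk1, a kinase that switches pyruvate dehydrogenase off, averaged 32.3 ± 3.99 CPM with cGAMP, 26.1 ± 1.48 CPM with anti-IL-35, 26.9 ± 2.74 CPM with the combination and 36.4 ± 3.42 CPM with IgG. The change was -0.48 ± 0.11 with anti-IL-35 (adjusted p = 0.000626) and -0.44 ± 0.11 with the combination (adjusted p = 0.00239), with no overlap between these libraries and those with IgG. With cGAMP the change was -0.17 ± 0.11 (adjusted p = 0.383) and the libraries overlapped those with IgG. NK receptor scaling ended the call with the combination (-0.22, adjusted p = 0.166). Pdk3, another such kinase, averaged 29.1 ± 2.05 CPM with cGAMP, 33.8 ± 2.56 CPM with anti-IL-35, 34.7 ± 1.33 CPM with the combination and 31.6 ± 1.54 CPM with IgG, and Pdha1, the catalytic subunit of pyruvate dehydrogenase, 78.1 ± 4.91 CPM with cGAMP, 74.8 ± 6.18 CPM with anti-IL-35, 72.3 ± 3.31 CPM with the combination and 77.4 ± 5.86 CPM with IgG. Neither was called relative to IgG with TMM scaling. With the combination, NK receptor scaling called Pdk3 higher (0.35, adjusted p = 0.00795), and library totals alone called Pdha1 lower (-0.25, adjusted p = 0.00798). Hif1a, the oxygen-sensitive factor that drives many glycolysis genes in hypoxia, averaged 117 ± 3.90 CPM with cGAMP, 128 ± 7.13 CPM with anti-IL-35, 144 ± 8.28 CPM with the combination and 124 ± 3.51 CPM with IgG. It was called with the combination (0.21 ± 0.06, adjusted p = 0.00606) and not with cGAMP (-0.09 ± 0.06) or anti-IL-35 (0.04 ± 0.06). The call ended with library totals alone (0.05, adjusted p = 0.512) and without combination replicate 1 (0.18, adjusted p = 0.054). With cGAMP, library totals alone gave Hif1a a lower call (-0.20, adjusted p = 0.0176).

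The share of each isozyme in its family does not depend on library scaling, and in some families the shares in treated libraries did not overlap those in IgG libraries. Of the hexokinases by CPM per kb, Hk3 made up 54.6 ± 0.779% with cGAMP, 64.4 ± 0.704% with anti-IL-35, 63.0 ± 1.3% with the combination and 46.2 ± 1.65% with IgG (SD, n = 3). Of the PFKFB enzymes, Pfkfb4 made up 58.6 ± 0.941% with cGAMP, 68.1 ± 1.66% with anti-IL-35, 66.7 ± 2.21% with the combination and 49.1 ± 0.295% with IgG. Of the lactate carriers, Slc16a3 held 83.8 ± 0.404% with cGAMP, 92.3 ± 1.43% with anti-IL-35, 92.6 ± 1.28% with the combination and 76.2 ± 1.69% with IgG. In these families the treated libraries lay above all IgG libraries. Of the glucose carriers, Slc2a3 held 43.4 ± 0.939% with cGAMP, 39.7 ± 1.28% with anti-IL-35, 40.2 ± 1.06% with the combination and 36.0 ± 1.17% with IgG, also without overlap with IgG. Of the pair of kinases, Pdk1 held 26.8 ± 2.15% with cGAMP, 20.3 ± 0.390% with anti-IL-35, 20.3 ± 1.10% with the combination and 27.5 ± 2.75% with IgG, and the anti-IL-35 and combination libraries were below the IgG libraries and the cGAMP libraries overlapped them. Of the phosphofructokinases, Pfkp held 51.5 ± 1.58% with cGAMP, 51.9 ± 2.68% with anti-IL-35, 50.8 ± 2.74% with the combination and 54.0 ± 0.733% with IgG. Its share lay below all IgG libraries with cGAMP and overlapped them with the other treatments. Pfkl with the combination and Pfkm with anti-IL-35 lay above all IgG libraries. Among enolases, Eno1 held 94.7 ± 1.03% with cGAMP, 94.0 ± 1.03% with anti-IL-35, 95.2 ± 1.52% with the combination and 91.8 ± 0.885% with IgG, without overlap with IgG. Of the aldolases, Aldoa held 99.4 ± 0.258% with cGAMP, 99.6 ± 0.201% with anti-IL-35, 99.5 ± 0.0560% with the combination and 99.4 ± 0.123% with IgG. Of the lactate dehydrogenases, Ldha held 98.4 ± 0.405% with cGAMP, 98.0 ± 0.143% with anti-IL-35, 97.8 ± 0.275% with the combination and 98.0 ± 0.517% with IgG. In both of these families each treated group overlapped IgG. No test was run on shares, and how much of each came from NK cells was not tested.

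**Figure D4:**
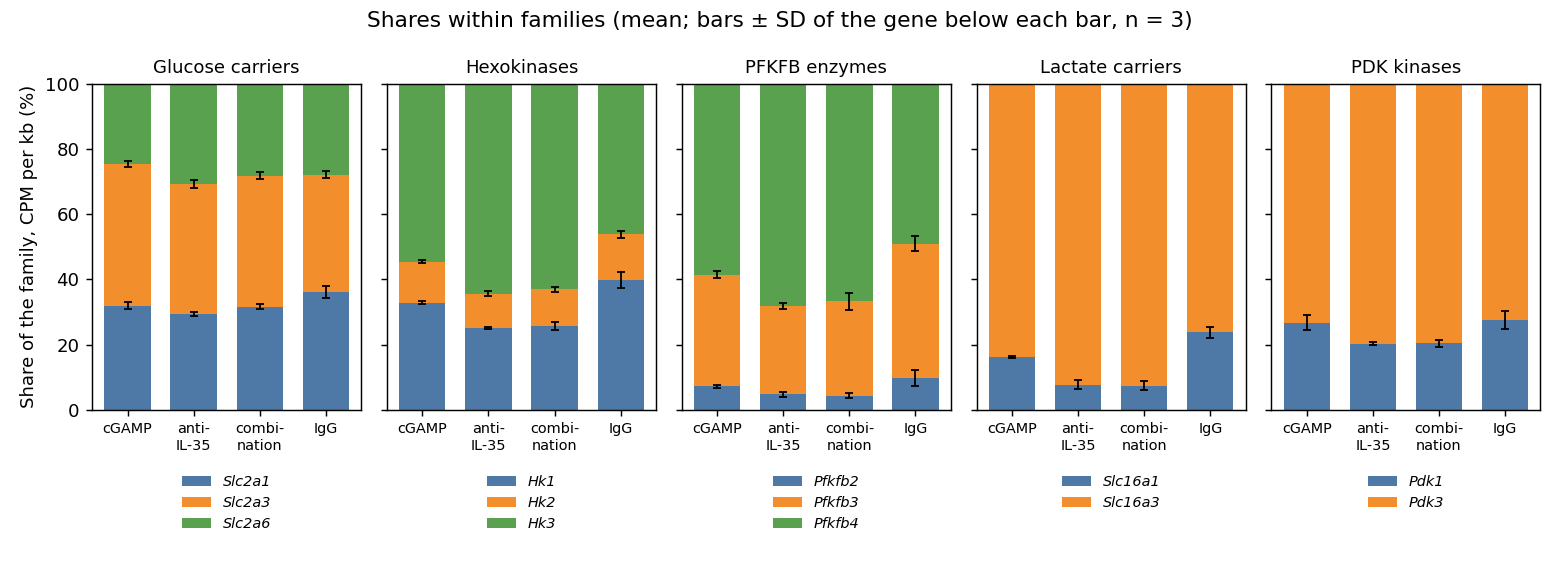
Share of each gene in its family (vertical axis, % of the family's CPM per kb) in the cGAMP, anti-IL-35, combination and IgG groups; stacked bars are means of 3 libraries, and error bars the SD of the gene below them. Hk3, Pfkfb4 and Slc16a3 take a larger part of their families in the treated groups than with IgG; Hk3 makes up 64.4% of the hexokinases with anti-IL-35, against 46.2% with IgG.

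The combination stood apart from cGAMP alone more than from anti-IL-35 alone in the number of calls. Against cGAMP, 17 of the 32 genes were higher and none was lower with the combination (9.99% and 4.83% of all tested genes), with a median of 0.28, against -0.00498 over all tested genes. DESeq2 also gave 0 lower calls among the 32, and 1 gene, Pdk1, was lower at an unadjusted p under 0.05 in edgeR. Without cGAMP replicate 2, Pdk1 was called lower (-0.36, adjusted p = 0.0393). Slc16a3 changed most clearly, by 1.18 ± 0.06 (adjusted p = 2.95e-22), then Pfkfb4, by 0.78 ± 0.06 (adjusted p = 8.78e-14), and Pkm, by 0.45 ± 0.04 (adjusted p = 1.06e-13). In each of these genes the combination libraries lay above all cGAMP libraries in the values given above. Hif1a was higher by 0.30 ± 0.06 (adjusted p = 0.000164). The 16 neutrophil markers were also all called higher in this comparison, while 12 of the 14 NK markers were called lower and 1 higher, and all 9 NK receptors used for scaling were called lower. The Hk2 call, 0.30 ± 0.09 (adjusted p = 0.0181), ended without cGAMP replicate 3 (adjusted p = 0.0815) and without combination replicate 2 (adjusted p = 0.135). NK receptor scaling, which put the median of all tested genes at 0.33, gave 25 higher calls among the 32. Over all tested genes it gave 6744 higher and 79 lower, and library totals alone 1198 and 1063, against 1417 and 685 with TMM.

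Against anti-IL-35, the combination gave 2 lower and no higher calls among the 32 genes (2.17% and 3.67% of all tested genes), with a median of -0.05. DESeq2 also gave 0 higher calls, and 2 genes, Eno2 and Hif1a, were higher at an unadjusted p under 0.05 in edgeR. Without combination replicate 2, Hif1a was called higher (0.22, adjusted p = 0.0422), and without combination replicate 3, Eno3 was called lower (-0.70, adjusted p = 0.0114). Pfkfb4 differed by -0.22 ± 0.06 (adjusted p = 0.016) and Slc2a6 by -0.29 ± 0.08 (adjusted p = 0.0161). All combination libraries were below the anti-IL-35 libraries in both genes. The Pfkfb4 call ended without anti-IL-35 replicate 3 (adjusted p = 0.155) or combination replicate 3 (adjusted p = 0.109), and the Slc2a6 call without these or combination replicate 2 (adjusted p of 0.0644 to 0.116). DESeq2 and library totals alone each called 4 lower, the others being Slc2a3 (adjusted p = 0.00939 and 0.0163) and Gapdh (adjusted p = 0.0235 and 0.0224). Slc2a3 was also called with RLE size factors (adjusted p = 0.042) and without anti-IL-35 replicate 1 (adjusted p = 0.0274). NK receptor scaling ended both calls and gave 5 higher and none lower. Over all tested genes it gave 3320 higher and 68 lower, and library totals alone 452 and 448, against 521 and 308 with TMM. For Slc16a3 the difference was 0.08 ± 0.05 and for Hk3 -0.08 ± 0.06, neither called, except Slc16a3 under NK receptor scaling (0.29, adjusted p = 0.0097). Of the neutrophil markers 7 were lower and 1 was higher in this comparison, and of the 11 B cell markers 10 were higher. Of the 14 NK markers 10 were lower, and of the 14 markers of macrophages and monocytes 10 were higher.

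The interaction compares the change with the combination with the sum of the changes with each treatment alone, on the log2 scale. It was called for 11 of the 32 genes, 9 lower and 2 higher (6.78% and 3.62% of all tested genes), so that in 9 genes the combination fell short of that sum. Slc2a3 summed to 1.90 over the single treatments, against 1.10 with the combination, an interaction of -0.80 ± 0.07 (adjusted p = 6.51e-13). For Slc16a3 the sum was 2.50 and the combination 1.88, an interaction of -0.62 ± 0.08 (adjusted p = 3.22e-08). Pfkfb4 had a sum of 1.97 and a combination change of 1.26, an interaction of -0.71 ± 0.09 (adjusted p = 4.51e-08). Hk3, Slc2a6, Gpi1, Pkm, Gapdh and Aldoa were also called lower, at -0.64 to -0.21. Eno2 and Hif1a were called higher, and both calls depended on single libraries. Of 12 fits that left out a library, 9 ended the Eno2 call (adjusted p of 0.0833 to 0.179), all but those without cGAMP replicate 1, anti-IL-35 replicate 1 or combination replicate 3. For Hif1a 8 ended it (adjusted p of 0.0518 to 0.119), all but those without cGAMP replicate 2, anti-IL-35 replicate 1, anti-IL-35 replicate 2 or combination replicate 2. NK receptor scaling, which put the median of all tested genes at 0.32, gave 9 higher and 2 lower calls. The 2 lower were Slc2a3 and Pfkfb4. Over all tested genes it gave 3362 higher and 209 lower, and library totals alone 759 and 584, against 514 and 961 with TMM. All 16 neutrophil markers had a negative interaction that was called, as did 12 of the 14 NK markers and 3 of 10 tested erythroid and platelet markers. Positive ones were called for all 11 B cell markers and 6 of the 14 markers of macrophages and monocytes. They were also called for 4 of the 11 dendritic cell markers and 3 of the 12 T cell markers.

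**Figure D5:**
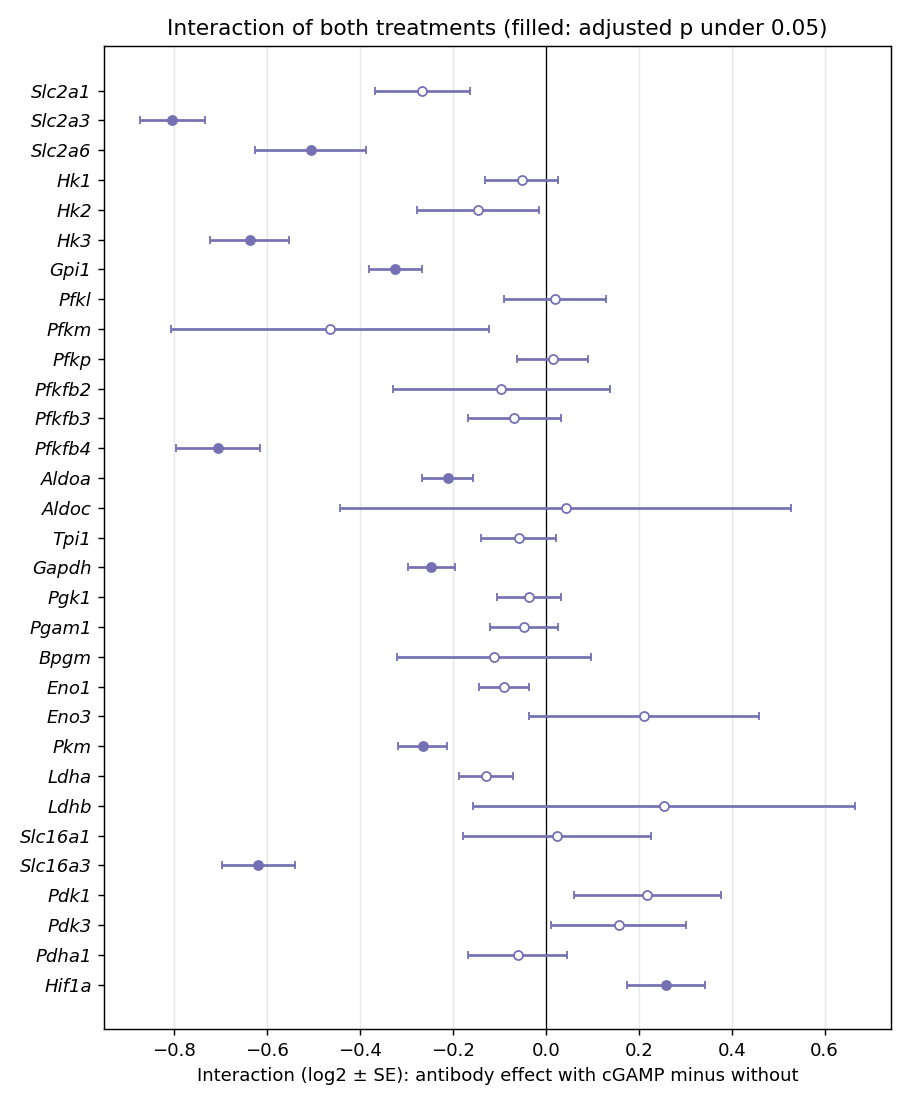
Interaction of both treatments (horizontal axis, log2 ± SE) for 31 of the 32 glycolysis genes, filled where the adjusted p was under 0.05, with Eno2 left out as above; negative values mean that the combination changed less than the sum of the single treatments. Slc2a3, Pfkfb4, Hk3 and Slc16a3 lie farthest to the left, between -0.80 and -0.62.

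Neighbouring pathways were listed for comparison, and their counts stand beside shares of all tested genes of 9.37% higher and 3.56% lower for cGAMP, 15.7% and 9.32% for anti-IL-35 and 15.7% and 7.50% for the combination. Shares and medians below follow that order of treatments. Of 12 genes of the pentose phosphate pathway, which makes NADPH from glucose phosphate, higher calls relative to IgG numbered 5 under cGAMP, 4 under anti-IL-35 and 4 under the combination, with no lower call by edgeR. The higher calls were 41.7%, 33.3% and 33.3% of the list, and the medians of its log2 fold changes 0.16, 0.17 and 0.10. G6pdx, its entry enzyme, averaged 184 ± 8.21 CPM with cGAMP, 291 ± 11.7 CPM with anti-IL-35, 258 ± 6.77 CPM with the combination and 135 ± 1.52 CPM with IgG and changed by 1.11 ± 0.05 with anti-IL-35. Pgd, which makes NADPH at the next oxidation, changed by 0.96 ± 0.05, and Taldo1, the transaldolase, by 0.75 ± 0.04. Of 12 tested genes of glycogen and gluconeogenesis, 2 were higher and 1 lower with cGAMP, 6 higher and 1 lower with anti-IL-35, and 4 higher and none lower with the combination. The higher calls were 16.7%, 50% and 33.3% of the list, with medians of 0.22, 0.35 and 0.21. Pygl, a glycogen phosphorylase, averaged 237 ± 2.76 CPM with cGAMP, 454 ± 12.1 CPM with anti-IL-35, 420.3 ± 6.70 CPM with the combination and 156 ± 10.3 CPM with IgG and changed by 1.54 ± 0.05 with anti-IL-35, and the glycogen synthase Gys1 by 0.88 ± 0.10. The citric acid cycle moved little: of 21 tested genes none was called with cGAMP, 1 was higher and 2 were lower with anti-IL-35, and 2 were lower with the combination. Lower calls were 9.52% of the list under anti-IL-35 and under the combination, near the shares of all tested genes, and the medians were 0.01, -0.03 and -0.10. Mdh2, the mitochondrial malate dehydrogenase, was the one higher, by 0.26 ± 0.05.

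Of 26 tested genes of the hypoxia pathway outside glycolysis, 4 were higher and 2 lower with cGAMP, 9 higher and 3 lower with anti-IL-35, and 8 higher and 1 lower with the combination. The higher calls were 15.4%, 34.6% and 30.8% of the list, with medians of 0.09, 0.08 and 0.14. Ndrg1 changed by 0.94 ± 0.09 with anti-IL-35 and Mxi1, an antagonist of Myc, by 1.09 ± 0.09 with the combination. Ddit4, an inhibitor of mTOR signalling, changed by -0.63 ± 0.07 with anti-IL-35. Of 25 tested genes among the other glycolysis and pyruvate dehydrogenase genes, 3 were higher with cGAMP, 4 higher and 1 lower with anti-IL-35, and 3 higher with the combination. At 12%, 16% and 12% of the list these higher calls were near the shares of all tested genes, and the medians were 0.17, -0.01 and -0.01. Adpgk, a glucokinase that uses ADP, averaged 131 ± 4.57 CPM with cGAMP, 208 ± 5.72 CPM with anti-IL-35, 197 ± 12 CPM with the combination and 78.5 ± 3.84 CPM with IgG and changed by 1.40 ± 0.06 with anti-IL-35. Hkdc1, Slc2a5 and Slc2a12 were at 0 in all libraries. Of 25 other regulators of glucose metabolism, 6 were higher and 1 lower with cGAMP, 10 higher and 1 lower with anti-IL-35, and 8 higher and 2 lower with the combination. The higher calls were 24%, 40% and 32% of the list, with medians of 0.09, 0.15 and 0.13. Txnip, which restrains glucose uptake, changed by 0.78 ± 0.04 with anti-IL-35.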

How the data were processed

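The authors deposited raw counts of reads per gene for 12 RNA-seq libraries of NK cells. Per the submitters' processing notes the tools were featureCounts, SAMtools 1.15 and STAR 2.7.7a, with mm10 as the build. Annotation, strand setting and the handling of multi-mapping reads are not given in the sources used here. Labels and column names gave the group and number of the 12 libraries. Within groups, counts of library pairs differed by more than sampling noise (chi-square divided by its degrees of freedom, 3.23 to 11.6), and each library was counted once. IDs with no symbol took 0.251% of counts.

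edgeR 4.0.16 in R 4.3.3 was used for the fit, with the filterByExpr filter at a minimum count of 10 and TMM scaling. A robust quasi-likelihood fit held the 4 groups with 8 residual degrees of freedom (common biological coefficient of variation 0.0958). Two-sided tests were adjusted by Benjamini-Hochberg over 14182 genes within each of 6 comparisons and called at an adjusted p under 0.05. Adjusted p-values come from this test unless another tool is named. Levels per kb used the merged exons of GENCODE vM21, and coordinates are RefSeq's on GRCm38.p6.

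The members, marker lists and pathway lists were chosen with earlier results of these data known. Values per library are given for called members without overlap between groups and a mean of at least 5 CPM: up to 6 with the largest change for each comparison with IgG, and up to 3 with the smallest p for the others; up to 4 genes of each other list could be named. Alternatives were RLE size factors, library totals alone, scaling on 9 NK receptor transcripts, DESeq2 1.42.0, no filter, a replicate block, a filter of 1 CPM in 6 libraries, fitting the compared groups alone, and leaving out each library. The fit was tested on simulated data. Depth and the number of libraries limit precision. Averaged over genes, the counting error alone is smaller than the spread between libraries, which need not hold for each gene.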

Additional observations from a re-analysis of the deposited data

Results flagged for a closer look

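By edgeR's test of the interaction, the change with cGAMP was called different with and without anti-IL-35 in 11 of the 32 genes. Of these, 9 were lower and 2 higher, beside 6.78% and 3.62% of all tested genes. Only the calls of Slc2a3 and Pfkfb4, 2 of 11, held under every alternative. Under NK receptor scaling Gpi1, Aldoa, Gapdh and Pkm turned positive and were not called. For the carriers the interaction, on the log2 scale, was -0.80 in Slc2a3, -0.51 in Slc2a6 and -0.62 in Slc16a3. For the enzymes and the regulator of the upper pathway it was -0.64 in Hk3, -0.32 in Gpi1, -0.71 in Pfkfb4 and -0.21 in Aldoa. In the lower pathway Gapdh had -0.25 and Pkm -0.27. The interaction was positive in Eno2, at 5.06, which rests on 4 counts in the cGAMP, 8 in the anti-IL-35, 37 in the combination and 30 in the IgG libraries, and in Hif1a, at 0.26. Leaving out 1 library ended the Eno2 call in 9 of 12 fits and the Hif1a call in 8 of 12.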

How the results depend on the processing

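Under RLE size factors, DESeq2, no filter, the stricter filter and the fit of only the groups compared, no direction of a called member turned. Of the members' calls, those that held under every alternative numbered 4 of 9 for cGAMP, 17 of 18 for anti-IL-35 and 13 of 20 for the combination against IgG. They numbered 16 of 17 for the combination against cGAMP, 0 of 2 for the combination against anti-IL-35 and 2 of 11 for the interaction. NK receptor scaling left 5 calls for cGAMP. For the combination against anti-IL-35, library totals alone gave 4 calls, NK receptor scaling 5 and DESeq2 4. Over all genes, NK receptor scaling gave 6823 calls for the combination against cGAMP, 3388 for the combination against anti-IL-35 and 3571 for the interaction, where TMM gave 2102, 829 and 1475. Leaving out 1 library gave 8 to 10, 17 to 18, 17 to 20, 16 to 18, 0 to 3 and 9 to 11 member calls in the order of comparisons above. Over all tested genes these fits gave 1375 to 1650, 2907 to 3374 and 2636 to 2960 calls for the treatments against IgG. They gave 1681 to 1945, 627 to 837 and 1216 to 1489 calls in the remaining comparisons. With all 12 libraries the counts were 1834, 3542, 3288, 2102, 829 and 1475.

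Sign turns of values that were called with TMM or under the alternative came with other scalings. With library totals alone Hk1 with the combination stood at -0.00679. Under NK receptor scaling Pfkp (0.31) and Pdha1 (0.23) turned positive for the combination against cGAMP, and Aldoa (0.19) and Pgk1 (0.21) for the combination against anti-IL-35. In the interaction Gpi1 (0.00691), Aldoa (0.12), Tpi1 (0.28), Gapdh (0.0848), Pgk1 (0.30), Pgam1 (0.28) and Pkm (0.0645) turned positive. By construction this scaling holds the sum of the 9 receptors equal across libraries and moves every gene, the receptors included, by 1 common factor per library. Uncalled values also turned under other settings, such as Aldoc with anti-IL-35 (0.22 without anti-IL-35 replicate 3) and Pfkm with cGAMP (0.13 without cGAMP replicate 2). The cause of other moves was not tested.

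No pairing by replicate number was seen: in 18 same-numbered pairs of libraries the correlation of deviations from group means was -0.02 to 0.04, and 5 of 12 libraries correlated best with their own number. Pairs with different numbers gave -0.04 to 0.03. These correlations cannot show what the numbers stand for. With the replicate block the members' calls were 9, 18, 19, 17, 2 and 11 in the same order, and 1 call ended (Hk1 with the combination). Over all tested genes the block gave 1723, 3461, 3183, 2004, 755 and 1386 calls. SEs were largest for the low-count members Eno2, Aldoc, Ldhb and Pfkm.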
